A study of Mus musculus with 3 samples.

Results

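This comparison sets progenitors given a short hairpin RNA (shRNA) against HIF-2a beside progenitors given an shRNA against HIF-1a, with 1 array for each. It covers every gene that the array annotation ties to at least 1 probe set of its own, which gave 17097 genes out of 45141 probe sets, and each gene was read from whichever of its probe sets was brightest on average across the 3 arrays of the series. Of these genes 6047 reached a mean log2 intensity of at least 4 (16 on the linear scale) over both shRNA arrays, and counts refer to them unless stated otherwise. The other 11050 genes were dimmer. A difference is the log2 intensity of the HIF-2a-labelled array minus that of the HIF-1a-labelled array, so 1 is 2-fold higher with the HIF-2a hairpin.

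All cells were PaS+ mesenchymal progenitors from the bone marrow of adult C56Bl/6 mice aged 8 weeks, sorted by FACS and kept in MesenCult medium at 1% oxygen during 7 days of culture. Lentivirus delivered the hairpin overnight once fibroblast colonies had begun to form, and RNA was taken 4 days after transduction. The third array held the same cells with a control shRNA. It is given as a further reading beside the compared arrays and enters none of the differences. All 3 groups shared the low oxygen, the medium and a lentiviral vector, so none shows cells at ambient oxygen or without virus. Neither the number of mice nor the hairpin sequences are given in the sources used here. With 1 array a side the spread between cultures is unknown, and sizes are described without tests.

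Hypoxia-inducible factors are transcription factors made of an oxygen-regulated alpha subunit and a stable beta subunit. When oxygen is low the alpha subunit escapes hydroxylation and destruction, enters the nucleus and turns on genes for glucose use, blood vessel growth and erythropoietin. HIF-1a (gene Hif1a) and HIF-2a (gene Epas1) bind the same short DNA element but differ in the genes they drive and in the tissues where they are abundant. Marrow stroma is a poorly oxygenated tissue, and its progenitors make the collagen matrix and the secreted factors that surround blood-forming cells.

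Of the targeted genes, Hif1a did not separate the hairpins and Epas1 was too dim for a firm check. The Hif1a probe set gave 352 on the control array and 332 on both shRNA arrays, a difference of 0.00, so it offered no check of the HIF-1a label. Its reading on the HIF-1a-labelled array was thus only slightly under control, and no lower than on the HIF-2a-labelled array. Epas1, which did not meet the minimum, read 5.09 on the control array, 9.44 on the HIF-1a-labelled array and 3.21 on the HIF-2a-labelled array. It was at least 2.72-fold lower on the latter, with the highest nonspecific control probe set of any array (3.47) as the floor, and part of that gap was a HIF-1a-labelled value above control. With 32 added before log2 the difference was −0.23. Each direction below therefore rests on the labels. The same floor of 3.47, the highest nonspecific level of any array, was used on every array for the cell type markers. Of 14 mesenchymal progenitor markers, 13 were above it on each array. The summed intensity of the 14 was 2770 (control), 3027 (HIF-1a-labelled) and 2615 (HIF-2a-labelled). Blood-cell markers were mostly dark: 1, 1 and 2 of 14 passed that level on the control, HIF-1a-labelled and HIF-2a-labelled arrays, with Cd14, a receptor for bacterial lipopolysaccharide, the bright one at 93.4, 87.8 and 93.2. No erythroid marker of 4 passed it on any array, and 2 of 11 endothelial markers passed it on each.

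Across the 6047 genes, 2733 (45.2%) read above 0, 1685 (27.9%) below 0 and 1629 were exactly equal, with a median of 0. The 1st and 99th percentiles were −0.92 and 0.90. At least 2-fold higher were 44 genes (0.728%) and at least 2-fold lower 49 genes (0.81%). At the smaller step of 1.5-fold, 182 genes (3.01%) were higher and 173 (2.86%) lower. The directions differed in brightness. Of the 44 higher genes, 30 lay among the 2016 dimmest genes and 2 among the 2016 brightest, whereas the 49 lower genes were spread as 18 among the dimmest, 15 in the middle and 16 among the brightest. The 12 probe sets for the spiked hybridisation controls were themselves lower on the HIF-2a-labelled array, by a median of −1.09 (range −1.59 to −0.64), while 4 probe sets of the dap spike gave a median of −0.06. Their part in the differences between genes was not tested. Actin and Gapdh 3′ to 5′ ratios, which fall out of balance when RNA degrades, were 1.52 and 1.19 on both shRNA arrays. Where a gene had several probe sets meeting the minimum, their differences had a pooled SD of 0.17 over 1705 genes, which is a technical spread and not a spread between cultures. Of the 93 genes past 2-fold 15 had several such probe sets, and these shared a direction in 14, the exception being the membrane protein gene Emb (−1.02 to 0.19). With 32 added before log2, 4 genes were past 2-fold higher and 14 past 2-fold lower.

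**Figure D1:**
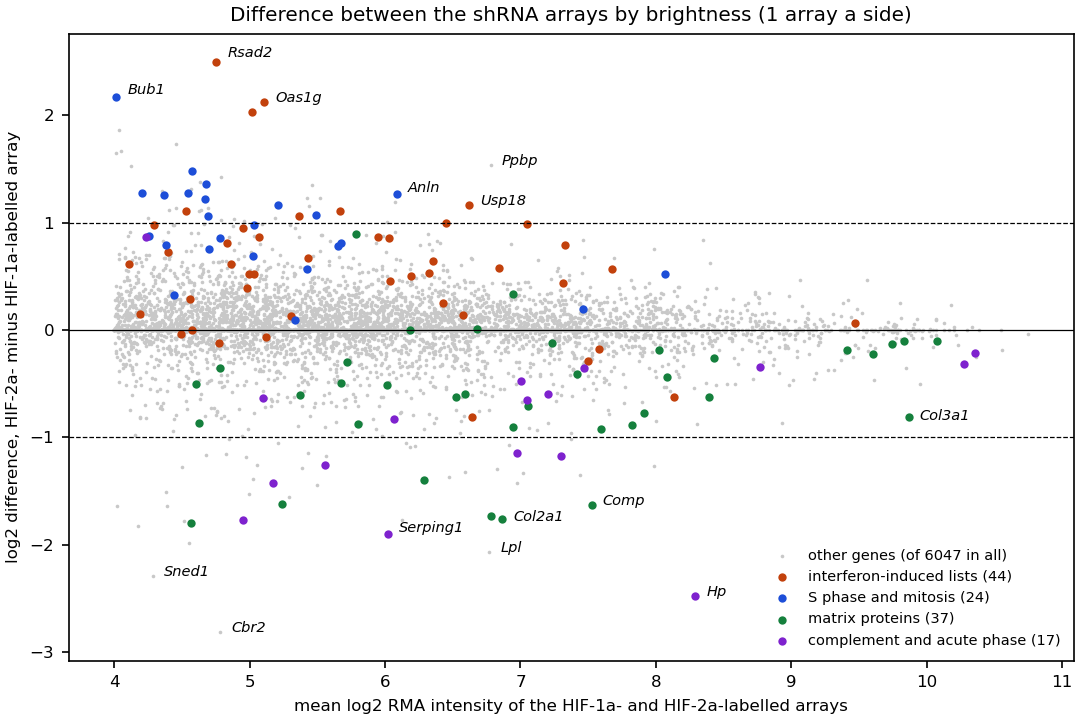
Each point is 1 of the 6047 genes, placed by its mean log2 intensity over both shRNA arrays (x) and its log2 difference, HIF-2a-labelled minus HIF-1a-labelled (y), with dashed lines at 2-fold. Interferon-induced and cell cycle genes lie mostly above 0 and toward the dim side, and matrix, complement and acute-phase genes lie mostly below 0 up to the brightest range.

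Some of the genes past 2-fold fell into recognisable families. Among the 44 higher genes 11 belonged to the S-phase and mitosis lists and 8 to the interferon lists, and 23 belonged to no list. Among the 49 lower genes 7 belonged to the matrix lists, 7 to the complement and acute-phase lists and 4 to the adipogenic list, and 25 to none. Of genes meeting the minimum, the S-phase and mitosis lists held 24, the complement and acute-phase lists 17 and the adipogenic list 11. The effector, sensor, synthetase, GTPase, PARP and TRIM lists held 44, with 7 at least 2-fold higher. The matrix protein lists held 37, with 6 at least 2-fold lower. Over all 6047 genes 0.728% were at least 2-fold higher and 0.81% lower. The lists were drawn up with earlier results of these data known, so these counts describe them and are no independent evidence of their direction. Promoter sequences of genes from both higher families are shown first, because motifs known for each family could be looked for ahead of their start sites.

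The interferon-stimulated response element, searched here as GAAANNGAAA on either strand, is the site bound by the STAT and IRF complexes that interferon activates. These are the 150 bases just before the start sites of 3 antiviral genes in RefSeq on GRCm38.p6, 5′ to 3′ on the strand of the gene, with that motif in capitals: Rsad2 (chr12:26456453-26456602, minus strand), Oas1g (chr5:120887614-120887763, minus strand) and Ifit1 (chr19:34640739-34640888, plus strand).
Rsad2: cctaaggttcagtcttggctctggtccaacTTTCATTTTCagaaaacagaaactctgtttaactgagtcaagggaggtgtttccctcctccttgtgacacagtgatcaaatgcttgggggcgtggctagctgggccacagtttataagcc
Oas1g: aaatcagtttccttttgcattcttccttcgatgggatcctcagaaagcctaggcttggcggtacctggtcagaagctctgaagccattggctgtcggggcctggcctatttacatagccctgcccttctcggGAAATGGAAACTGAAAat
Ifit1: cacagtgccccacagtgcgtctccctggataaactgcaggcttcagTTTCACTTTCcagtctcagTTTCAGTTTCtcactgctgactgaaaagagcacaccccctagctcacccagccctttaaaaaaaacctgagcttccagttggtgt
The match in Rsad2 begins 120 bases before the start, the overlapping matches in Oas1g 18 and 12 bases before it, and those in Ifit1 104 and 85 bases before it. In the 250 bases before the start, 17 of 34 interferon-list genes with a promoter in the table held the motif (50%), against 3.19% of 4987 genes meeting the minimum and 3.46% of all 27025 promoters in the table. Of the 159 genes that met the minimum and held it, 11.3% read at least 1.5-fold higher with the HIF-2a hairpin, against 2.80% of those without it. At least 1.5-fold lower were 5.03% of holders and 2.55% of the others, and the median of the holders was 0.00.

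Mitotic genes are known for CCAAT boxes, which bind NF-Y, and for the cell cycle homology region, which recruits the repressor complex that silences these genes in resting cells. The latter was searched as TTTGAA, and both motifs were searched on either strand. The next 3 sequences show the 150 bases before the starts of mitotic genes on the same build and in the same orientation, with both motifs in capitals: Top2a (chr11:99024190-99024339, minus strand), Cdca5 (chr19:6084947-6085096, plus strand) and Bub1 (chr2:127831860-127832009, minus strand).
Top2a: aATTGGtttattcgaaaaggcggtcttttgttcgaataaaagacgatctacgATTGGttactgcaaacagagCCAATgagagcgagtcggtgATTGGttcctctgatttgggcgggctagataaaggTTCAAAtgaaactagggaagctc
Cdca5: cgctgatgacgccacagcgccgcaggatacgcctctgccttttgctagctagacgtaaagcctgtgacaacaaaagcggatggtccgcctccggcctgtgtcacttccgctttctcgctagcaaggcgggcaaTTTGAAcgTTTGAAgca
Bub1: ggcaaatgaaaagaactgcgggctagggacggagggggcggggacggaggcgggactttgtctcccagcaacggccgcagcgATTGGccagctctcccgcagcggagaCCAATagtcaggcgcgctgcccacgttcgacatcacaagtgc
Top2a holds 4 CCAAT matches and 1 TTTGAA match, which begins 23 bases before the start. Cdca5 holds TTTGAA matches at 17 and 9 bases before the start, and Bub1 holds CCAAT matches alone, at 68 and 42 bases. In the 250-base window, 9 of 12 genes of the mitosis list held CCAAT (75%, against 40.2% of the 4987 genes) and 7 of 12 held TTTGAA (58.3%, against 12.5%). None of the 12 held the interferon motif, while 35.3% of the 34 interferon-list genes held CCAAT and 20.6% held TTTGAA. The core hypoxia response element, searched as ACGTG or GCGTG on either strand, was common everywhere: 65.5% of the 4987 genes held it, against 45.9% of 37 genes at least 2-fold higher and 41.9% of 31 genes at least 2-fold lower. A match is a run of letters and does not show that a factor was bound.

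Cell cycle genes read higher with the HIF-2a hairpin. All 15 genes of the mitosis and cytokinesis list that met the minimum were above 0, from 0.69 to 2.17 with a median of 1.22, and 10 of 15 were past 2-fold. The 9 genes of DNA replication and S phase were also all above 0, with a median of 0.57, 4 of them past 1.5-fold and 1 past 2-fold. A minimum on brightness can favour genes that are bright on 1 side, so the lists were also counted without it: all 43 genes found were above 0 (median 0.98), against 29.3% of all 17097 genes. Pcna, Rrm2 and Anln were the brightest of the 24 that met the minimum. Adding 32 to every intensity before log2, which shrinks the differences of dim genes, gave medians of 0.50 for mitosis and 0.39 for S phase.

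Bub1, a kinase of the spindle checkpoint, read 2.36 on the control array, 7.63 on the HIF-1a-labelled array and 34.3 on the HIF-2a-labelled array, 4.49-fold higher on the latter. Cdca5, the sororin that holds sister chromatids together, read 2.78, 8.60 and 31.2 in the same order (3.63-fold). Cep55, which works in the final cut between daughter cells, read 9.27, 12.00 and 39.9 (3.32-fold). In all 3 the HIF-2a-labelled array was the brightest, and the control and HIF-1a-labelled arrays were dim. For Bub1 and Cdca5 the HIF-1a-labelled value also lay well above control, so these genes rose in steps. Cenpa, the histone variant of centromeres, read 10.5, 14.3 and 39.8 (2.78-fold), and Top2a, the topoisomerase that untangles chromosomes, 13.9, 15.9 and 40.9 (2.57-fold). Trip13, an ATPase that takes apart checkpoint complexes, read 7.66, 10.2 and 29.5 (2.88-fold). Cdca5, Cenpa, Top2a and Trip13 were read from probe sets shared between transcripts. Without such probe sets Cdca5 had a difference of 1.08 and Trip13 one of 0.53, under 2-fold, and the remaining probe sets of Cenpa and Top2a stayed between 0.97 and 1.14 on every array, too dim to check them.

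Other mitotic genes, some of them brighter, differed in the same direction. With a mean log2 of at least 6 the mitosis median was 1.27. Anln, the actin-binding scaffold of the cleavage furrow, read 48.8, 43.9 and 106, a difference of 1.27. Cdk1, the kinase that starts mitosis, read 37.99, 38.5 and 67.4 (0.81). Ube2c, the ubiquitin carrier of the anaphase-promoting complex, read 36.6, 30.9 and 64.95 (1.07). For these 3 the control and HIF-1a-labelled values lay close together. For the proliferation marker Mki67 the difference was 1.27, for the cyclin genes Ccna2 and Ccnb2 1.28 and 0.76, for the survival and spindle protein Birc5 1.22, and for the spindle assembly factor Tpx2 1.25. Others past 2-fold that no list held, named after their values were seen, were the condensin subunit Smc2 (1.15), the kinetochore subunits Spc25 (1.02) and Ska2 (1.11), the activator of the replication kinase Dbf4 (1.04) and the PCNA-binding Pclaf (1.23).

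The replication genes differed less. Mcm6, Mcm4 and Mcm7, subunits of the replicative helicase, had differences of 1.16, 0.98 and 0.85. Pcna, the sliding clamp of the polymerases and the brightest of the list, read 228, 224 and 321 (0.52). Rrm2, a ribonucleotide reductase subunit, read 179, 165 and 189, so its control value lay between those of the hairpins. Inhibitors of the cycle differed less. Among 17 p53 targets and inhibitors of cyclin-dependent kinases, 9 were above 0, 4 below and 4 equal, none past 1.5-fold, with a median of 0.02. The kinase inhibitors Cdkn2b and Cdkn2a had differences of −0.38 and −0.30, Btg2, an antiproliferative gene, one of −0.53, and Mdm2, the ligase that degrades p53, one of 0.45. In a bulk culture more cycling cells and more mitotic RNA per cell cannot be told apart.

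**Figure D2:**
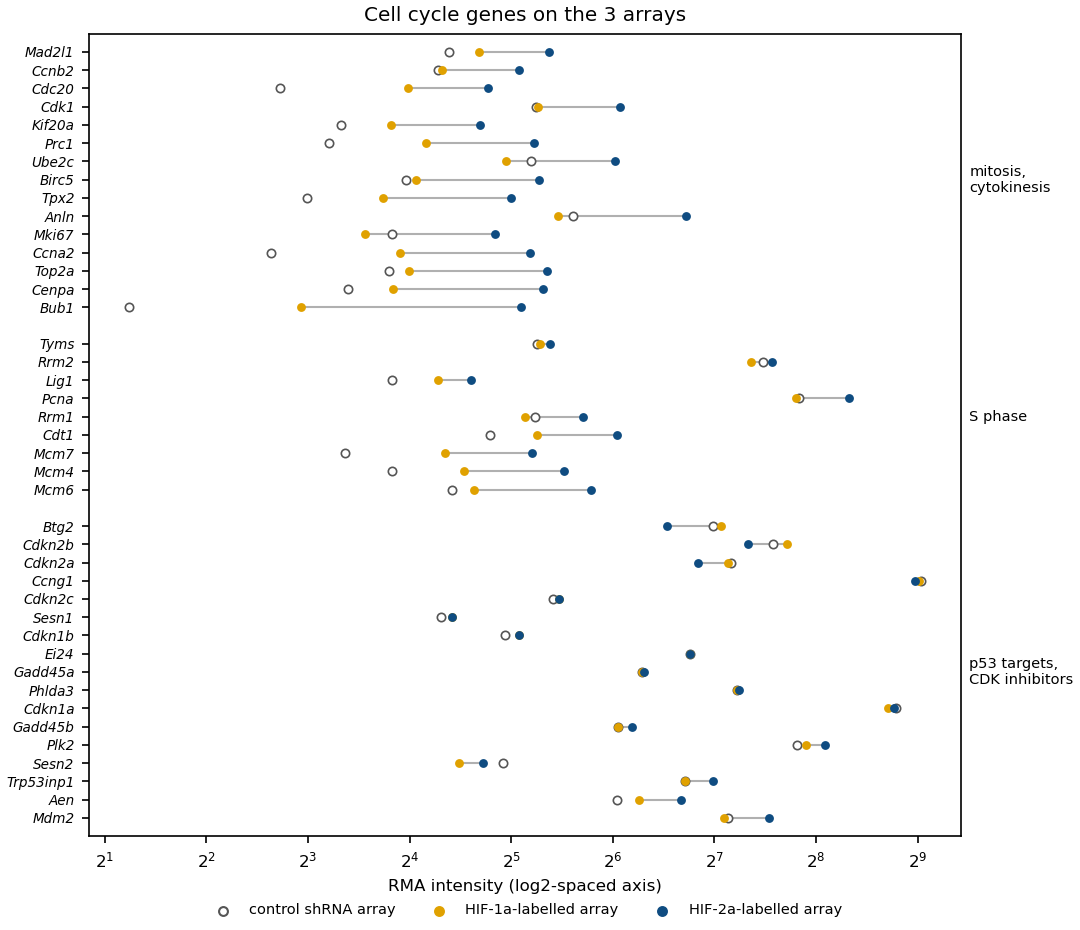
RMA intensity on a log2-spaced axis for each cell cycle gene that met the minimum, with 1 point per array (open, control; yellow, HIF-1a-labelled; blue, HIF-2a-labelled) and a line joining the compared arrays. In the 15 mitosis and 9 S-phase genes the blue point lies to the right of the yellow one, while in the 17 p53 targets and inhibitors the points mostly overlap.

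Interferon-induced genes formed the other higher family. Cells that sense viral nucleic acid or interferon turn on a broad set of genes through STAT and IRF factors, and a lentiviral shRNA vector was present in every group. Over 5 lists (antiviral effectors, nucleic acid sensors, oligoadenylate synthetases, GTPases, and PARP and TRIM genes) 44 genes met the minimum, of which 36 were above 0, 7 below and 1 equal, with a median of 0.57. At least 1.5-fold higher were 21 of them (47.7%), against 3.01% of all 6047 genes. At least 1.5-fold lower were 2, Ifitm2 and Tlr2. Without the minimum 53 of the 68 genes found were above 0, against 29.3% of all 17097 genes, and their median was 0.53.

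Among the effectors, 12 of 15 were above 0 and 7 at least 1.5-fold higher. Ifit1, which binds foreign RNA, read 1.04 on the control array, 93.8 on the HIF-1a-labelled array and 186 on the HIF-2a-labelled array (0.99). Usp18, which limits interferon signalling, read 1.26, 65.7 and 147 (1.17). Zbp1, which detects left-handed nucleic acid helices, read 1.35, 34.6 and 74.7 (1.11). These genes were at background on the control array and present on both shRNA arrays, with the HIF-2a-labelled array the brightest. Others past 1.5-fold were Ifit3, a partner of Ifit1 (1.00, just under 2-fold), Xaf1, a promoter of cell death (0.79), and Ifi35 (0.67). Not every effector followed. Eif2ak2, the kinase PKR, read 8.62, 35.5 and 33.9 (−0.07), Ifit2 had a difference of 0.15 and Ifitm3, a barrier to viral entry, one of 0.07. Ifitm2, of the same membrane family as Ifitm3, read 310.1, 349 and 227 (−0.62).

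The list of nucleic acid sensors had 8 of 12 genes above 0, 3 of them past 1.5-fold, with a median of 0.34. It also held Tlr2, Tlr4 and Myd88, which are not nucleic acid sensors, and none of these was above 0. Tlr4 had a difference of −0.12 and Myd88 one of 0.00. The remaining member not above 0 was the nuclease Trex1 (−0.04). Ifih1, which encodes the RNA sensor MDA5, read 1.35, 22.3 and 43.1 (0.95), whereas Ddx58, the sensor RIG-I, read 17.4, 78.9 and 93.8 (0.25). Tlr2, a receptor for bacterial lipoproteins, was the exception below 0 past 1.5-fold, at 88.5, 132 and 75.3 (−0.81). Of the GTPases 6 of 7 were above 0 (median 0.73, or 0.34 with no minimum and 0.44 with 32 added), led by Iigp1 (1.07), Igtp (0.87) and Gbp3 (0.86), which attack vacuoles that hold microbes. Gbp2 was the one below 0 (−0.29), at 84.96, 200.2 and 164. Of the oligoadenylate synthetases, whose product activates RNase L, Oas1g (2.12) and Oasl2 (0.97) met the minimum. Trim30a (2.03) and Trim30d (1.11), which lie close together with 1 gene between them in the RefSeq table, were the highest of 8 PARP and TRIM genes, all above 0 with a median of 0.57, or 0.36 with 32 added. Ifi209, an interferon-induced gene outside the lists, read 1.94, 9.10 and 28.6 (3.14-fold higher). Its second probe set, under the minimum, read 1.25, 3.15 and 31.1, a larger difference of 3.30. On that probe set the control and HIF-1a-labelled values lay under the nonspecific level.

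Signalling genes upstream of this response did not share the direction. Of 14 STAT and IRF pathway genes 4 were above 0, 8 below and 2 equal (median −0.11). Irf7, the factor that amplifies interferon production, read 3.91, 27.6 and 70.5 (2.55-fold higher), but Irf9, the DNA-binding part of the interferon complex, had a difference of 0.32, Irf1 one of 0.00, and the receptor subunits Ifnar1 and Ifnar2 had differences of −0.13 and −0.20. Socs3, a feedback inhibitor of cytokine receptors, had one of −0.70. MHC class I and immunoproteasome genes were all above 0 (10 of 10) by small steps with a median of 0.12. The class I heavy chains H2-D1 and H2-K1 read 244 against 436 (0.84) and 455 against 628 (0.46) on the HIF-1a-labelled and HIF-2a-labelled arrays, and Erap1, which trims peptides for them, had a difference of 0.99. Heavy-chain genes are near-identical copies, so their probe sets may read more than 1 of them.

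**Figure D3:**
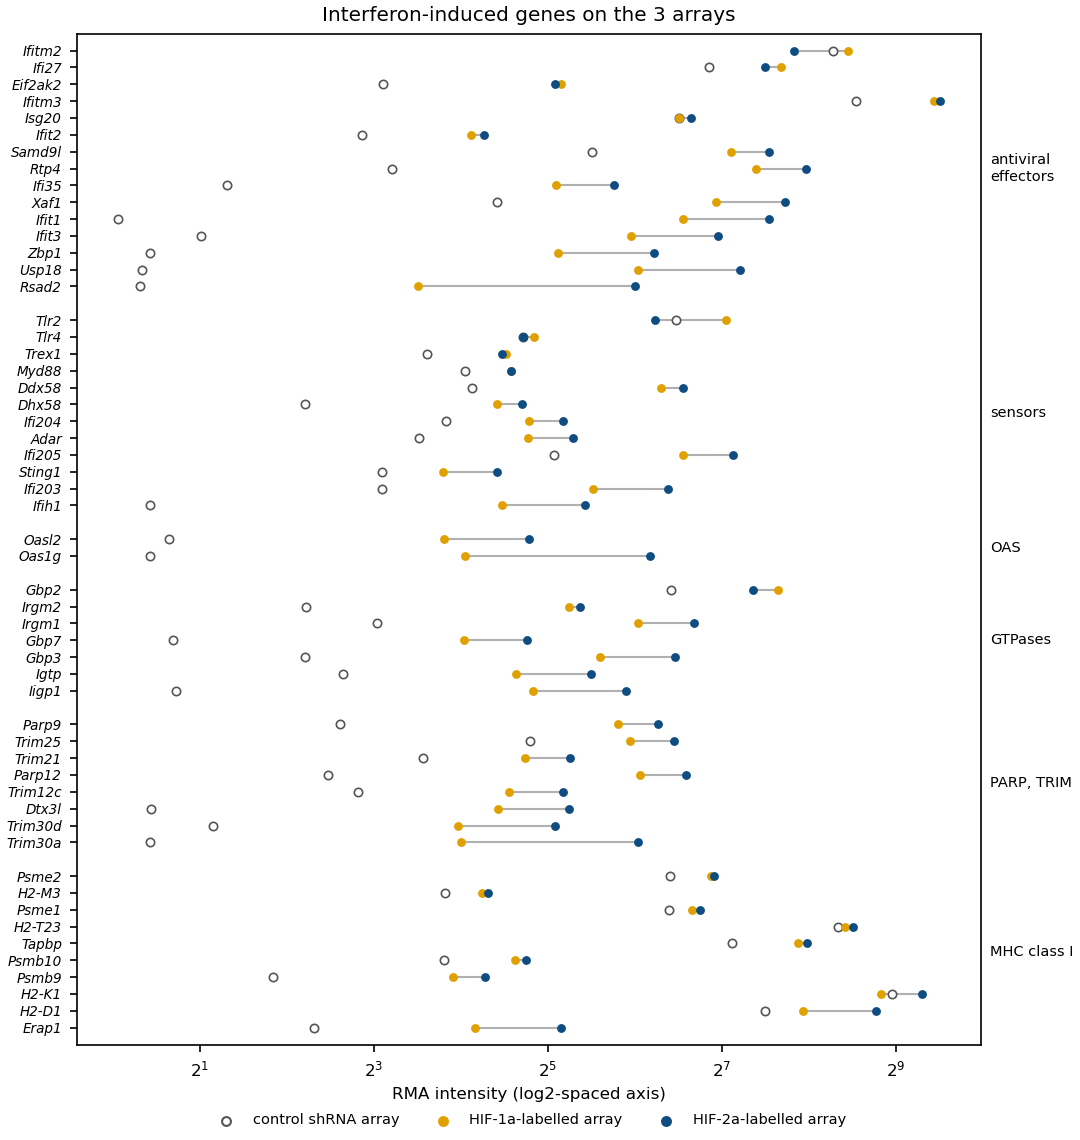
RMA intensity on a log2-spaced axis for each interferon-induced and MHC class I gene that met the minimum, 1 point per array (open, control; yellow, HIF-1a-labelled; blue, HIF-2a-labelled). Most open points lie far to the left, and the blue point lies to the right of the yellow in 36 of the 44 genes of the first 5 groups and in all 10 of the last.

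Inflammatory genes showed small differences of mixed direction. Of 14 chemokines and cytokines 9 were below 0 and 4 above (median −0.11), and of 14 genes of NF-kB feedback and inflammation 11 were below 0 and 3 above (median −0.15). Past 1.5-fold were 2 chemokine genes higher and 1 lower, and no NF-kB gene, and both medians lay within the 0.17 spread between probe sets. Cx3cl1, the membrane-bound chemokine, read 107, 127 and 70.4 (−0.84), and Cxcl5, which attracts neutrophils, 476, 605 and 423 (−0.52). Above 0 were Cxcl10, itself an interferon-induced chemokine (0.87), Ccl5 (0.34) and Ppbp, a neutrophil chemokine precursor, at 59.3, 64.5 and 187. Sod2, the mitochondrial superoxide dismutase that NF-kB induces, had a difference of −0.50, and Nfkbia, which encodes the inhibitor of NF-kB, one of −0.29.

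Secreted defence proteins were lower with the HIF-2a hairpin. Of 8 complement genes 7 were below 0 (median −0.74, 3 at least 2-fold lower), and all 9 acute-phase genes were below 0 (median −0.65, 4 at least 2-fold lower). Serping1, the inhibitor of the first complement proteases, read 162 on the control, 126 on the HIF-1a-labelled and 33.7 on the HIF-2a-labelled array (3.73-fold lower). C4b, a component of the classical pathway, read 71.04, 57.1 and 16.7 (3.42-fold), and C1s1, a protease of the first complex, 59.5, 58.9 and 21.97 (−1.42). On all 3 the HIF-2a-labelled array was the low one. Cfb, of the alternative pathway, read 40.7, 89.6 and 50.3 (−0.83), so there the HIF-1a-labelled array was the high one. The member above 0 was Cd55, which shields cells from complement (0.86). Without the minimum the complement median was −0.36, and with 32 added before log2 it was −0.47.

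Among acute-phase genes, Hp, the haptoglobin that captures free haemoglobin, read 593, 741 and 133 (5.59-fold lower). Lbp, which hands lipopolysaccharide to its receptor, read 162, 188 and 84.4 (−1.15), and Cp, the copper oxidase ceruloplasmin, 245, 236 and 105 (−1.17). Steap4, a metal reductase of the cell membrane, had a difference of −1.26. The brightest members differed least: Saa3, a serum amyloid, read 1416 against 1219 (−0.22), and Lcn2, which binds bacterial iron carriers, 1389 against 1113 (−0.32). Saa1 (−0.60) and Saa2 (−0.65) are near-identical copies whose probe sets may share signal. Among blood-cell and macrophage markers Cd14 was bright on both arrays, and the others were near or under the nonspecific level. Without probe sets shared between transcripts the acute-phase median was −1.15.

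Genes of fat cells and lipid handling were lower in 10 of 11 cases (median −0.51, or −0.28 with no minimum), 4 of them at least 2-fold. Lpl, the lipase that frees fatty acids from lipoproteins, read 149, 224 and 53.2, and its second probe set gave −1.86 beside −2.07. Fabp4, the fatty acid carrier of adipocytes, read 298, 394 and 164 (−1.27), and Plin4, a coat protein of lipid droplets, 25.8, 35.1 and 12.4 (−1.51). On these probe sets all 3 were lowest on the HIF-2a-labelled array and highest on the HIF-1a-labelled array, with control between. A second bright probe set of Fabp4 differed less (−0.81). It read 119 on both the control and HIF-1a-labelled arrays and 67.8 on the HIF-2a-labelled array. Pparg, the master factor of adipogenesis, differed by −0.29 and Cebpb, an early factor, by −0.09. Plin2, the droplet protein that hypoxia induces, was the member above 0, at 434, 454 and 565 (0.32). Summed over 5 adipocyte markers the arrays read 338, 441 and 199.9, with Fabp4 the largest part. Among 10 genes of cholesterol and fatty acid synthesis 7 were below 0 and 2 above (median −0.19), led by the desaturase Scd1 (−0.55) and by Fdps, a farnesyl diphosphate synthase (−0.39).

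Most matrix genes were lower with the HIF-2a hairpin. Over the collagen, proteoglycan, thrombospondin, elastic fibre and basement membrane lists, 33 of 37 genes were below 0, 3 above and 1 equal, with a median of −0.51. At least 1.5-fold lower were 18 of them (48.6%) and at least 1.5-fold higher 1. Of all 6047 genes 27.9% were below 0 and 2.86% at least 1.5-fold lower. Without the minimum 40 of 57 were below 0, 5 above and 12 equal, with a median of −0.30. Of all 17097 genes 29.3% were above 0 without the minimum, and the share below 0 was not counted.

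Of 12 collagen chains 11 were below 0 (median −0.50). Col3a1, a fibrillar collagen of soft tissue and the brightest chain, read 1029.5, 1239 and 705 (−0.81). Col1a1, the main collagen of bone, read 130.4, 127 and 48.1 (−1.40), and Col2a1, that of cartilage, 194, 215 and 63.3 (−1.76). Control and HIF-1a-labelled values were close for Col1a1 and Col2a1 and the HIF-2a-labelled value was low. The beaded-filament chains Col6a1 (−0.89) and Col6a2 (−0.77) followed, while their partner Col6a3 had a difference of −0.19, and Col8a1, a short-chain collagen, was above 0 (0.33). Summed intensity over 10 chondrocyte markers was 479, 609 and 228 on the control, HIF-1a-labelled and HIF-2a-labelled arrays. It rested on Col2a1 and Comp, and on each array 4 of the 10 markers lay above the nonspecific level. Summed intensity over 6 osteoblast markers was 138, 135 and 56.1, nearly all of it Col1a1. The part of other cell types in these differences was not tested.

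All 6 small leucine-rich proteoglycans, which set the width of collagen fibrils, were below 0 (median −0.57), but unevenly: the median was −0.18 with no minimum or with a mean log2 of at least 6. Fmod, fibromodulin, read 139, 201 and 60.3 (3.33-fold lower) and Lum, lumican, 42.5, 66.2 and 21.6 (−1.62). Bgn and Dcn, biglycan and decorin, were the brightest and differed by −0.11 and −0.10. The 3 thrombospondin-family genes had the lowest median of the lists (−1.63, or −0.79 with 32 added): Thbs4, of tendon and muscle, read 66.6, 44.04 and 12.7, Comp, of cartilage, 218, 325 and 105, and Thbs2, a regulator of collagen assembly, 196, 267 and 141. Thbs4 was brightest on the control array and Comp and Thbs2 on the HIF-1a-labelled array, and the HIF-2a-labelled array was lowest in each.

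Of 8 elastic fibre and microfibril genes 6 were below 0 (median −0.52, or −0.15 with no minimum, 4 at least 1.5-fold lower), with Emilin1 at −0.90, the fibulins Fbln1 and Fbln5 at −0.87 and −0.62, and Ltbp2, a microfibril protein, at −0.63. Ltbp1, which tethers latent TGF-beta, differed by 0.01. Of 8 basement membrane genes 7 were below 0 (median −0.35, or −0.16 with a log2 of at least 6 on at least 1 of the 3 arrays), among them the type IV collagens Col4a1 (−0.71) and Col4a2 (−0.59) and the heparan sulphate proteoglycan Hspg2 (−0.61). Agrn, agrin, was the exception and read 18.5, 40.3 and 75.01 (0.89), lowest on the control array. Other lower matrix-associated genes were Sned1, a secreted matrix protein, at 31.99, 43.3 and 8.80 (4.91-fold lower), and Ccn5, a matricellular protein, at 107, 129 and 37.8 (3.42-fold). Ccn2 and Ccn1, the bright members of the same family, differed by 0.00 and −0.06, and the median of its 4 members was −0.43, ranging from −0.89 without shared probe sets to −0.03 with no minimum. Ccn3, another member, had a difference of −0.80.

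Enzymes that modify collagen differed less than the collagens. Of 17 members 12 were below 0, 3 above and 2 equal (median −0.21), and 1, the cross-linking oxidase Loxl1 (−0.67), was past 1.5-fold lower. Loxl3 (−0.56), the collagen chaperone Serpinh1 (−0.33) and Pcolce, which enhances procollagen processing (−0.55), lay below 0, whereas Plod2, a lysyl hydroxylase that hypoxia induces, differed by 0.04. Chaperones of the endoplasmic reticulum, where collagen folds, were below 0 in 15 of 19 cases (median −0.20), led by Sdf2l1 (−0.92), Creld2 (−0.75) and the secreted stress factor Manf (−0.57).

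Matrix-degrading enzymes and their inhibitors differed in both directions. Of 11 genes 7 were below 0 and 4 above (median −0.34). The gelatinase Mmp2 read 100.2, 131 and 67.4 (−0.96), the collagenase Mmp13 623, 661 and 362 (−0.87), and the aggrecan-cleaving Adamts5 101, 111 and 60.97 (−0.87). All 3 were lowest on the HIF-2a-labelled array. Mmp10, a stromelysin, read 14.2, 13.00 and 31.95 (1.30). The inhibitors Timp1, Timp2 and Timp3 were all above 0, at 0.10, 0.25 and 0.62, Timp1 within the 0.17 spread between probe sets. Timp3 had 4 probe sets, and the dimmer of them differed more: the representative read 399, 272 and 419, the next 324, 186 and 349 (0.91), and the dimmer ones 97.4, 45.2 and 130 (1.52) and 30.9, 13.7 and 45.6 (1.73). On every one of them the HIF-1a-labelled array was the low one and control lay nearer to the HIF-2a-labelled array.

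**Figure D4:**
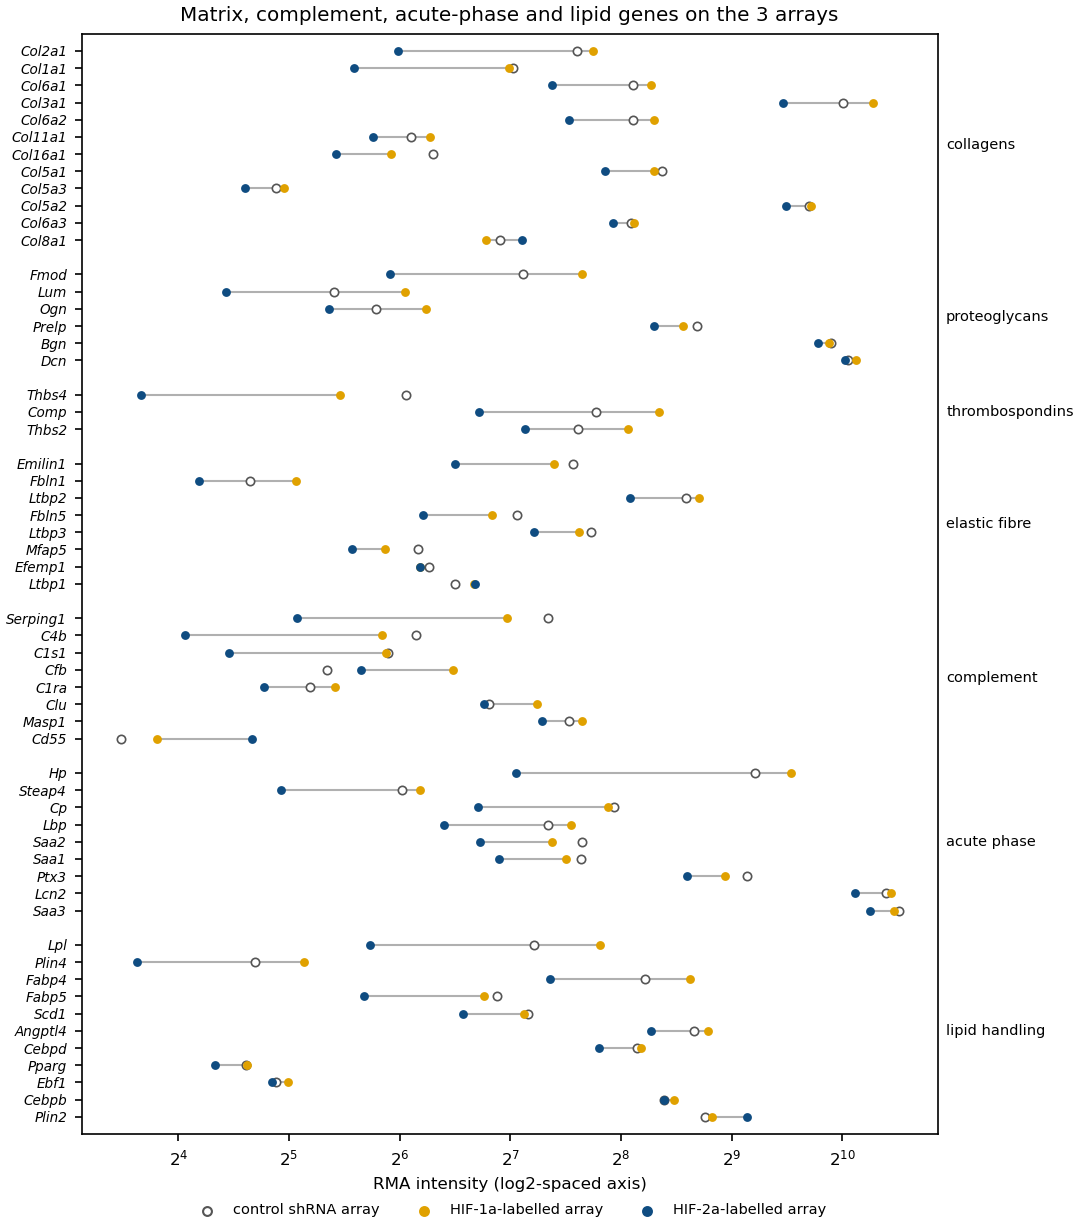
RMA intensity on a log2-spaced axis for the matrix, complement, acute-phase and lipid genes that met the minimum, 1 point per array (open, control; yellow, HIF-1a-labelled; blue, HIF-2a-labelled), with a line joining the compared arrays. The blue point is the lower of the joined pair in 11 of 12 collagens, 6 of 6 proteoglycans, 3 of 3 thrombospondins, 7 of 8 complement genes, 9 of 9 acute-phase genes and 10 of 11 lipid genes.

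Growth factor pathways gave single genes rather than a shift. TGF-beta ligands, receptors and response genes had a median of 0.00 over 18 members (6 above, 7 below, 5 equal), with the induced matrix protein Tgfbi (−0.99) and the ligand Tgfb3 (−0.81) past 1.5-fold lower. Igfbp3, which binds insulin-like growth factors, read 101, 103 and 49.4 (−1.06), and 4 of 5 genes of that axis were below 0 (median −0.27). Niche factors that hold blood stem cells had 5 of 7 members below 0 and 2 equal (median −0.16, or −0.47 without shared probe sets). Among them Cxcl12, the retention chemokine, read 249.96, 178 and 72.3 (−1.30), so each array was lower than the one before it in this order, and Kitl, the stem cell factor, was equal at 166. Dkk3, a secreted protein of the Dickkopf family, read 42.5, 46.5 and 11.7 (3.96-fold lower), and Rspo2, an enhancer of Wnt signalling outside the lists, had a difference of −1.28.

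The imprinted long noncoding RNAs Meg3 and Rian, which come from a single maternally expressed cluster, were lower together. Meg3 read 200.3, 206 and 76.8, and its 4 probe sets that met the minimum ranged from −1.62 to −1.42. Rian read 82.8, 106 and 49.7 (−1.09). For both, the control and HIF-1a-labelled arrays were high and the HIF-2a-labelled array low. Under the minimum, Mirg, of the same cluster, read 2.81, 6.299 and 3.38, and Peg3, a paternally expressed imprinted gene, 4.64, 7.78 and 2.10, both highest on the HIF-1a-labelled array. Among brighter imprinted genes of the growth network Plagl1, a zinc-finger factor of that network, was above 0 (0.77), Ndn differed by 0.07 and Grb10 by 0.03, and the median of 7 was −0.10, or −0.60 without shared probe sets.

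Genes of oxygen sensing and glucose use, the textbook targets of these factors, barely differed between the hairpins. Of 8 HIF subunit and oxygen-sensing genes 7 were exactly equal, and Egln3, a HIF prolyl hydroxylase that is itself a HIF target, differed by 0.05. Of 28 hypoxia-induced genes outside glycolysis 14 were below 0, 9 above and 5 equal (median −0.01). Car9, the carbonic anhydrase of hypoxic cells, was 382 on both arrays, Vegfa, the vessel growth factor, read 287 against 276, and Bnip3, of mitochondrial clearance, 867 against 858 on the HIF-1a-labelled and HIF-2a-labelled arrays. The members past 1.5-fold were Selenbp1, a selenium-binding protein (−0.61), and Ankrd37 (0.59). Of 21 glycolysis genes 9 were above 0, 6 below and 6 equal (median 0.00). Ldha, lactate dehydrogenase, was equal at 1149, and Hk2, hexokinase, read 188, 153 and 196 (0.36). Slc16a1, a lactate carrier, was the one past 1.5-fold, at 289, 344 and 190.4 (−0.85). No sample at ambient oxygen was compared, so how far these genes were induced is not measured here.

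Genes of the amino-acid stress factor ATF4 were above 0 in 17 of 20 cases, with 2 below and 1 equal and a median of 0.30. Slc7a11, the cystine importer, read 7.23, 30.5 and 55.7 (0.87), lowest on the control array. Slc7a5, a carrier of large neutral amino acids, read 28.04, 24.99 and 41.4 (0.73), and Psat1, of serine synthesis, 71.7, 79.4 and 125 (0.66). The serine-pathway enzymes Phgdh and Psph had differences of 0.48 and 0.49, the pseudokinase Trib3 0.50, the glutathione-degrading Chac1 0.54 and asparagine synthetase, Asns, 0.44. Atf4 itself differed by 0.12. No member reached 2-fold, and 3 of the 20 were past 1.5-fold.

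Detoxification genes were below 0 in 21 of 32 cases, above in 6 and equal in 5 (median −0.07). Cbr2, a carbonyl reductase, read 32.8, 73.1 and 10.4, 7.05-fold lower and the largest difference of the comparison in either direction. It was the highest on the HIF-1a-labelled array and the lowest on the HIF-2a-labelled array. Gpx3, the secreted glutathione peroxidase, read 238, 277 and 108 (−1.35), and Sod3, the extracellular superoxide dismutase, 101, 126 and 72.6 (−0.80). Enzymes that the oxidant-sensing factor NRF2 drives were near 0 or slightly above, such as Nqo1 (−0.04), Gclm (0.23) and Txnrd1 (0.29).

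The remaining single genes past the largest steps had varied roles. Above 0, Ankrd1, a stretch-responsive repeat protein, read 11.9, 16.9 and 45.2 (2.68-fold), Akr1c18, a progesterone-metabolising reductase, 31.8, 15.4 and 39.9 (2.59-fold), and Dmkn, the skin protein dermokine, 9.27, 9.27 and 29.5 (3.18-fold). Akr1c18 was low on the HIF-1a-labelled array alone, as its control value lay near that of the HIF-2a-labelled array. Below 0, the prostaglandin F receptor Ptgfr read 28.1, 34.1 and 9.60 (3.55-fold), Rgs4, a brake on G-protein signalling, 41.1, 42.3 and 12.3 (3.44-fold), and the amine oxidase Aoc3 33.3, 36.9 and 11.9 (3.11-fold). Acta1, skeletal muscle actin, read 16.7, 28.6 and 9.19 (3.11-fold). Acta2, the smooth muscle actin, read 374, 429 and 233 (−0.88) and was the 1 of 7 smooth muscle markers above the nonspecific level on each array, on a probe set shared between transcripts. The contractile list had a median of 0.00 over 11 genes, Acta2 included, and Myl9, a myosin light chain, had the next lowest difference (−0.51). Among 5 integrin subunits Itga6, the laminin receptor chain (0.99), was past 1.5-fold and the median was 0.00, or 0.58 when all probe sets of a gene were averaged.

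House-keeping machinery differed little. Cytosolic ribosomal protein genes had a median of 0.00 over 42 genes, 12 above, 10 below and 20 equal, and none past 1.5-fold. Proteasome subunits were above 0 in 20 of 26 cases with 5 equal (median 0.09), up to 0.29 for Psmb5, a catalytic subunit. Respiratory chain and ATP synthase genes were above 0 in 23 of 35 cases, 5 below and 7 equal (median 0.02). Lysosomal cathepsins and membrane proteins had 8 of 14 below 0, 3 above and 3 equal (median −0.10), led by Ctsh (−0.44).

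**Figure D5:**
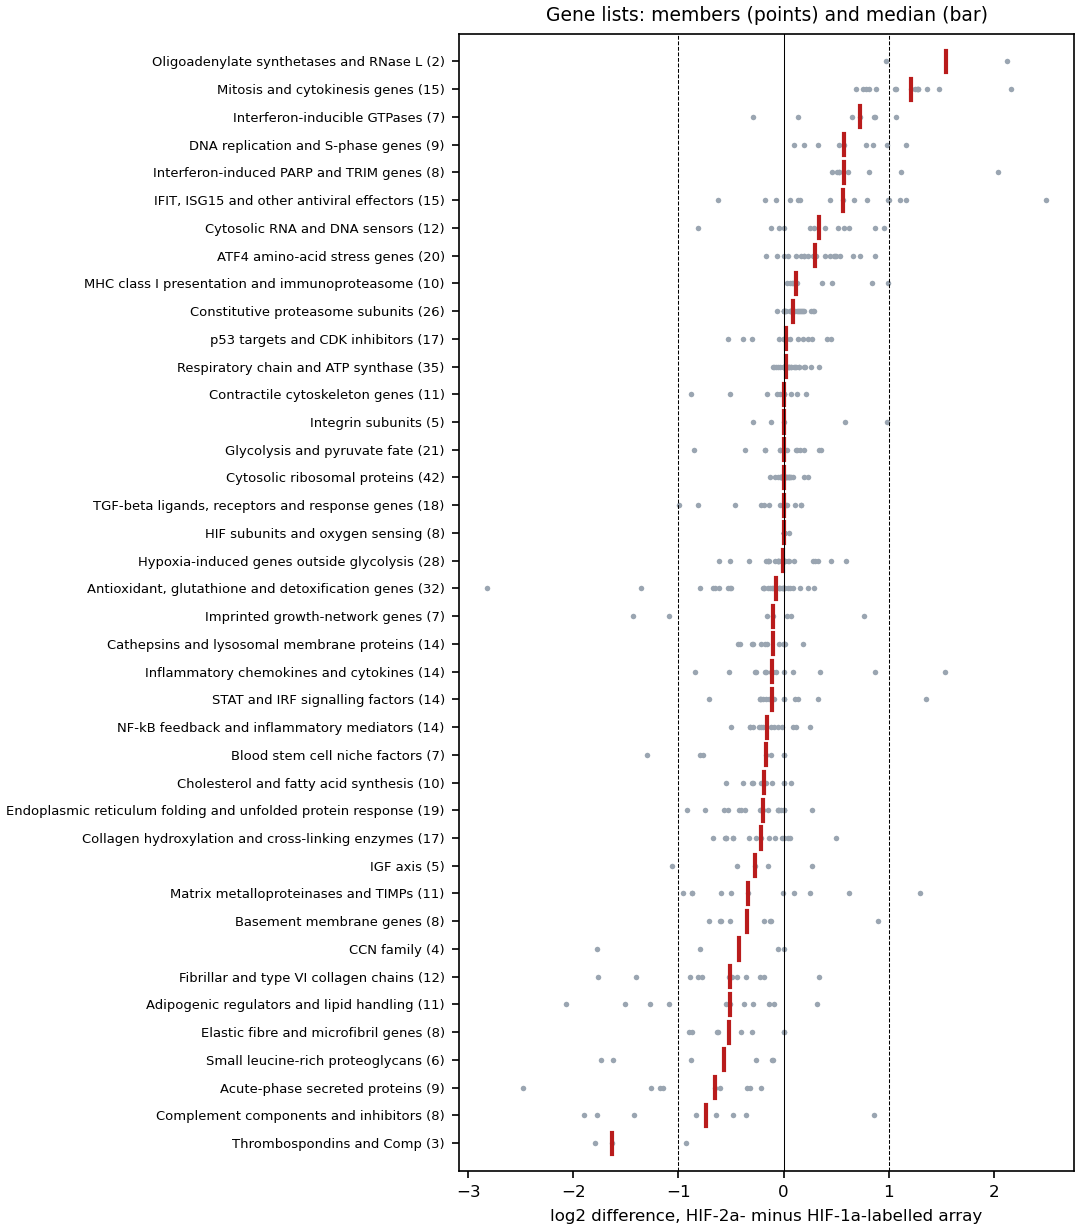
Log2 difference (HIF-2a-labelled minus HIF-1a-labelled array, x) of every gene that met the minimum (points) in each gene list (rows, with the number of genes), and the list median (red bar); dashed lines mark 2-fold. The oligoadenylate synthetases (median 1.55 over 2 genes) lie at the top, followed by mitosis genes (1.22) and interferon-inducible GTPases (0.73). Thrombospondins (−1.63), complement (−0.74) and acute-phase genes (−0.65) lie at the bottom. Glycolysis, hypoxia and ribosomal lists lie near 0, and MHC class I (0.12) and STAT and IRF genes (−0.11) lie close to them.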

How the data were processed

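Total RNA from mouse bone marrow progenitors was read on 3 single-colour Affymetrix arrays, 1 per shRNA, grouped by their titles. The authors deposited linear RMA intensities, a method stated in the submitters' processing notes without a version or settings, which the sources used here do not give. The method estimates a probe set from all arrays together, which can leave exactly equal values between arrays. The log2 of the deposited intensities was taken with nothing added and no further scaling (Python 3.11.15, pandas 2.3.3, numpy 2.4.6).

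Of 29449 probe sets listed in the platform annotation 28898 had 1 gene and 551 had several, and 28689 were matched to RefSeq gene names (GRCm38.p6). Control probe sets (104) and unlisted ones were left out of gene counts. A gene met the minimum with a mean log2 of at least 4 over both shRNA arrays. No test was run, because 1 array per shRNA gives no spread, so precision is limited by the number of arrays. Counting was checked on simulated data.

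The rule for named genes covered Hif1a and Epas1, the 15 genes at either end of the differences, and the members of 40 gene lists that differed at least 1.5-fold or, in lists with fewer, the 4 largest differences. Not all of these list members are printed, and some genes outside the rule are named as contrasts, chosen after their values were seen. The 8 marker lists describe mesenchymal progenitors and other cell types. The comparison, the lists and the rule were chosen with earlier results of these data known. Alternatives were other minimums on brightness, 32 added before log2, cyclic loess (limma 3.58.1, R 4.3.3), setting the median to 0, averaging probe sets, and leaving out shared probe sets.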

Additional observations from a re-analysis of the deposited data

Results flagged for a closer look

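Probe sets that no gene count used also differed between the shRNA arrays. Of 1989 probe sets not listed in the annotation that met the minimum, 8 were at least 2-fold higher and 18 at least 2-fold lower on the HIF-2a-labelled array. Among the 6047 genes the matching counts were 44 (0.728%) and 49 (0.81%), so the unlisted probe sets do not stand out from the genes. Of 180 probe sets tied to several genes that met it, 2 were at least 2-fold higher and 4 at least 2-fold lower. They are signal outside the genes compared, and there is no replicate to set them against.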

How the results depend on the processing

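The number of genes past 2-fold depended on how dim genes were handled. The 44 higher and 49 lower genes became 137 and 81 with no minimum, 5 and 22 with a mean log2 of at least 6, 14 and 32 with a log2 of at least 6 on at least 1 of the 3 arrays, and 4 and 14 with 32 added before log2. They were 44 and 49 after cyclic loess or after setting the median to 0, 44 and 50 with the mean of a gene's probe sets, and 32 and 40 without shared probe sets. Of the 15 highest and 15 lowest named genes, 4 and 7 were past 2-fold with 32 added. With 32 added the medians were 0.50 for mitosis, 0.39 for S phase, 0.38 for antiviral effectors and −0.47 for complement. With no minimum the S-phase median was 0.79 and the complement median −0.36, with a mean log2 of at least 6 the S-phase median was 0.36, and without shared probe sets the acute-phase median was −1.15. Over all lists and alternatives 287 medians moved by no more than the pooled SD between probe sets (0.17), and 32 moved further; for named genes the counts were 118 and 37. The cause of these shifts was not tested. No paired analysis was possible because each shRNA has 1 array and the labels give no replicate numbers, and for the same reason no array could be left out. The dim mitotic and antiviral genes lie nearest the background and are the least certain.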

Other observations

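Among the probe sets that stay unnamed, the highest read 6.34 on the control array, 8.60 on the HIF-1a-labelled array and 33.7 on the HIF-2a-labelled array (3.92-fold higher). The lowest read 176, 155 and 47.8 (3.24-fold lower).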
